A study of Mus musculus with 354 samples.

Results

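The liver response to tolvaptan was described in IL16513, a Collaborative Cross strain, that is, an inbred mouse line derived by mixing the genomes of several founders; the series holds 45 such lines. The strain contributed 8 of the 354 arrays, each from a different male mouse. Animals 171, 172, 173 and 174 were given vehicle (labelled Control), and animals 175, 176, 177 and 178 were given tolvaptan. All 8 were 8 to 10 weeks old at dosing, had about 7 days to acclimate, and went without food for some 18 h before liver was taken at 24 h. The dose label carries no unit and was not used, and no genetic change besides the inbred background is named. RNA came from the median lobe, and each probe set's deposited value is a log2 intensity, so that a difference of 1 is a 2-fold change.

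IL16513 was chosen by its response score, a value measured on these same 8 livers, and every tolvaptan minus vehicle difference in the strain comes from that contrast. Its differences are therefore given as descriptions with their standard errors (SE); the number of genes past a threshold in the strain is given too, but supports nothing. The tests relied on were made on the 346 arrays of the other 44 strains, which share no animal with IL16513. Those arrays supplied the genes of the score, so the choice of the strain is not independent of them. With 1 mouse per array, biological variation is part of every SD and SE.

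Tolvaptan blocks the vasopressin V2 receptor, which acts in the kidney collecting duct, and the drug has been linked to liver injury in some patients. Hepatocytes make most plasma proteins and fold them in the endoplasmic reticulum (ER). When unfolded protein builds up there, the sensors Ern1, Atf6 and PERK raise the transcription of chaperones, disulfide isomerases and genes that send misfolded protein for degradation. The acute phase response is the separate programme by which hepatocytes, under cytokine signals, secrete serum amyloid A, fibrinogen and related proteins.

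The labels of the strain were borne out by the arrays. Over the 500 probe sets that best separated strains, each of the 8 arrays correlated at 0.84 to 0.95 with the other IL16513 arrays and at no more than 0.20 with any other strain. Across the series 34 arrays, none of them from IL16513, correlated under 0.5 with their labelled strain. The array of vehicle animal 171 stood apart in spread: the interquartile range of its deviations from the probe set medians was 0.56, the 7th widest of 354, against 0.33 to 0.43 in the other 7 IL16513 arrays. Its 75th percentile was 4.88, the 6th lowest of all arrays, against 5.07 to 5.25 in the other 7. Results are therefore given with and without it. Hepatocyte markers were bright in all 8 livers, with a mean log2 value over 15 markers of 12.39 to 12.64.

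The response score is the mean log2 value of the 47 genes that rose minus that of the 22 genes that fell in the other 44 strains, after removal of scan effects. Vehicle animals 171, 172, 173 and 174 scored -1.84, -1.50, -1.66 and -1.81, and tolvaptan animals 175, 176, 177 and 178 scored -1.05, -1.34, -1.36 and -1.04. Every tolvaptan animal scored above every vehicle animal, a separation and a rank that describe the value on which the strain was selected. The group means were -1.70 ± 0.16 (SD, n = 4) and -1.19 ± 0.18 (SD, n = 4), a difference of 0.51. The difference was 0.46 without animal 171, 0.77 in scan 1 (178 minus 174) and 0.48 in scan 2 (175 and 176 against 171, 172 and 173). A scan here is a scan date. Tolvaptan animal 177 was in scan 3, which held no vehicle array of the strain, so scans were not balanced between the groups. IL16513 ranked 8 of 45, where each strain was scored on the genes called with that strain left out, so the gene sets differ somewhat between strains. Its neighbours in that order, AU8048 with 0.55 and OR15156 with 0.50, differed from it by less than the spread between its animals. Over all 45 strains the score difference averaged 0.26 ± 0.34 (SD), and 36 strains were above 0.

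**Figure D1:**
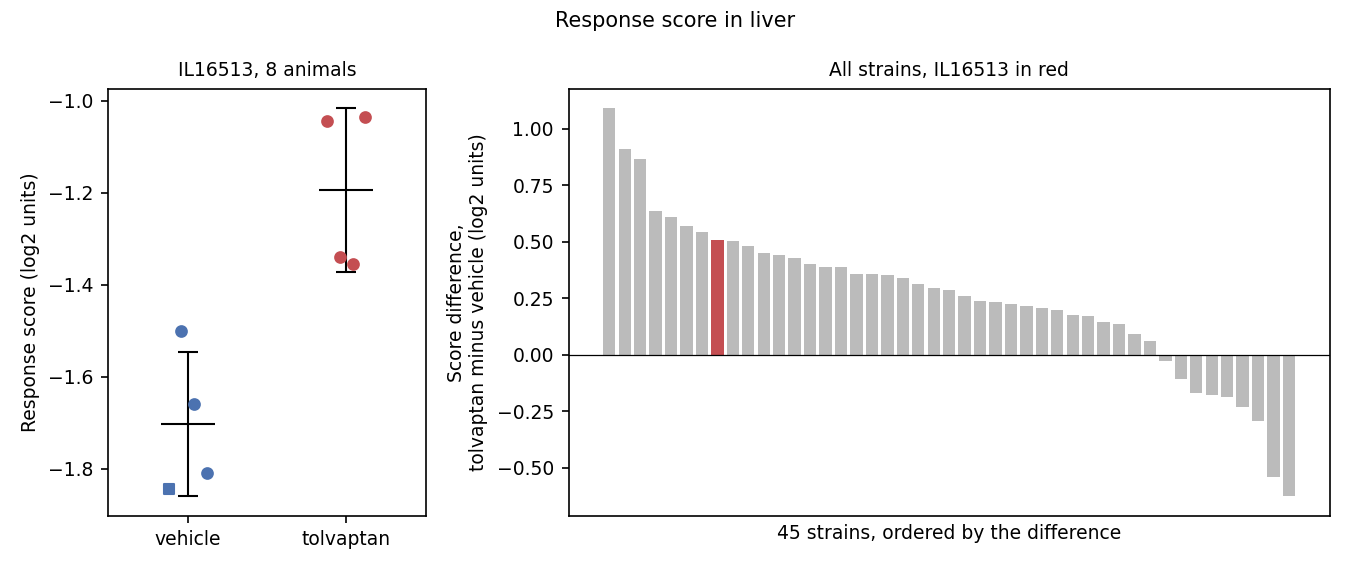
Left, the response score (log2 units) of the 4 vehicle and 4 tolvaptan IL16513 animals, with mean and SD bars and a square for animal 171. Right, the score difference of each of the 45 strains in falling order, with IL16513 in red at rank 8.

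No single gene passed the threshold in IL16513. Of 14125 genes, limma called 0 higher (0%) and 0 lower (0%) at an adjusted p under 0.05, while 724 had an unadjusted p under 0.05, of which 340 were higher and 384 lower. That number was 263 without animal 171, 372 without animal 175, 1327 without animal 172 and 1384 without animal 176, and 546 to 990 without any 1 of the other 4. The median difference over all genes was -0.02, with a median SE of 0.21, and 45.6% of the genes were above 0. The 4 tolvaptan values lay above all 4 vehicle values for 90 genes (0.637% of those tested) and below them for 186 genes (1.32%). Nothing is read from these shares, since the strain was chosen on this contrast.

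The genes of the panel-wide response are those of the score that chose IL16513, so their direction and size in the strain restate that choice and are given as a description. Across the other 44 strains limma called 47 genes higher (0.333% of those tested) and 22 lower (0.156%) with tolvaptan. In IL16513 40 of the 47 differed by more than 0, with a median of 0.26 against 0.16 in the other strains, and 20 of the 22 were below 0, with a median of -0.21 against -0.13. Without animal 171 the IL16513 medians were 0.19 and -0.16. The IL16513 difference was further from 0 than the mean of the other strains for 33 of the 47 and 16 of the 22. Groups were fully apart for 2 of the 47, Saa3 and Ctps2, and for 1 of the 22, Coq10a. Without scan 2, which leaves 258 of the 346 arrays, 1 gene was called in the other strains, Alas1, with a difference of 0.44 ± 0.09 (SE, limma adjusted p = 0.034). Fewer arrays and the scan itself cannot be told apart in that count. With strains rather than animals as the unit, 16 genes were called, and without the arrays that did not match their strain, 29.

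**Figure D2:**
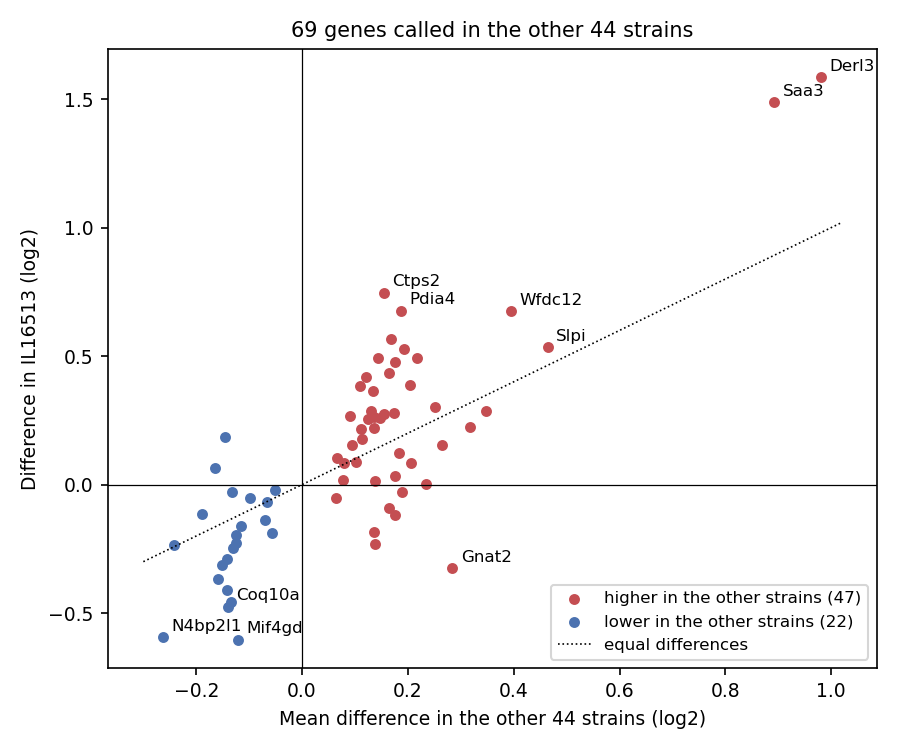
Difference in IL16513 (vertical, log2) against the mean difference in the other 44 strains (horizontal, log2) for the 69 genes called in those strains, with 47 higher in red and 22 lower in blue. Of the red points 33, and of the blue points 16, lie further from 0 in IL16513 than in the other strains, and Gnat2, at -0.33 in IL16513, is among the 7 red points below 0.

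Derl3, part of the channel complex that moves misfolded protein out of the ER, had the largest difference of the panel-wide genes. Its vehicle values were 7.29, 5.76, 6.62 and 8.50 in animals 171 to 174, and its tolvaptan values were 6.94, 9.41, 8.79 and 9.91 in animals 175 to 178. The groups overlapped, because tolvaptan animal 175 was below vehicle animals 171 and 174. The difference was 1.58 ± 0.88 (SE), 1.69 without animal 171, and between 1.18 and 2.15 when any 1 animal was left out. Elsewhere in the panel, in the other 44 strains, Derl3 rose by 0.98 ± 0.13 (SE, limma adjusted p = 4.3e-08), with a positive difference in 34 of 44. The adjusted p there was 0.020 with strains as the unit, and 0.052 without scan 2, where the difference was 0.72. IL16513 ranked 13 of 45 for this gene.

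The secretory chaperones and isomerases of the ER were mostly higher after tolvaptan. Over all genes tested, 45.6% were above 0. Of the 28 genes of the ER stress list, all tested, 0 were called, 20 were above 0 and 8 below, with a median of 0.20 against -0.02 over all genes. Without animal 171, 22 were above 0 and the median was 0.16. The list's median in the other 44 strains was 0.04, with 3 members called higher there: Derl3, Pdia4 and Pdia6. No member had groups that were fully apart in IL16513. Dnajc3 and Pdia4 were named by the rule of the largest moderated statistic; the further members below were picked after their values were seen.

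Dnajc3, the ER co-chaperone also known as p58IPK, read 7.70, 8.91, 8.82 and 9.16 in vehicle and 9.49, 8.96, 9.88 and 10.27 in tolvaptan livers. Only tolvaptan animal 176 fell inside the vehicle range. The difference was 0.95 ± 0.33 (SE), and 0.66 without animal 171, whose value was the lowest. All 5 probe sets of the gene had a positive difference. Its mean in the other 44 strains was 0.13 ± 0.05 (SE, limma adjusted p = 0.31), and IL16513 ranked 3 of 45.

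Pdia4, a protein disulfide isomerase, gave 7.90, 7.90, 7.99 and 8.31 in vehicle and 8.50, 8.89, 8.28 and 9.24 in tolvaptan animals. Here 3 tolvaptan livers exceeded all vehicle livers, and animal 177 lay just below vehicle animal 174. Its difference was 0.68 ± 0.31 (SE) and 0.65 without animal 171. Pdia4 rose by 0.19 ± 0.05 (SE, limma adjusted p = 0.030) in the other 44 strains. The difference there was 0.17, with an adjusted p of 0.12, once arrays that did not match their strain were left out. The adjusted p was 0.27 with strains as the unit, and 0.70 without scan 2, where the difference was 0.13. It stayed under 0.05 in the other settings run.

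Pdia6, another disulfide isomerase, read 8.48, 8.58, 8.69 and 9.21 in vehicle and 8.92, 9.33, 9.29 and 9.74 in tolvaptan animals, a difference of 0.53 ± 0.28 (SE). Vehicle animal 174 was the only one inside the tolvaptan range. The other 44 strains showed a rise of 0.19 ± 0.04 (SE, limma adjusted p = 0.0081), with 0.17 and an adjusted p of 0.068 once the mismatched arrays were left out. With strains as the unit the adjusted p was 0.28, and without scan 2 it was 0.29, where the difference was 0.18. It stayed under 0.05 in the other settings run.

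Hspa5 (BiP), the main ER chaperone and the switch that holds the stress sensors inactive, read 8.13, 9.74, 9.53 and 8.87 in vehicle and 10.14, 9.27, 9.92 and 9.80 in tolvaptan animals. The difference of 0.69 ± 0.35 (SE) was 0.38 without animal 171. Hsp90b1 (GRP94), a chaperone of secreted and membrane proteins, read 8.16 in animal 171 and 8.83 to 9.02 in the other vehicle animals against 10.02, 8.58, 9.09 and 9.45 in tolvaptan animals, a difference of 0.54 ± 0.37 (SE) and 0.34 without animal 171. For both chaperones the vehicle and tolvaptan ranges overlapped, and animal 171 was the lowest of the 8. Sdf2l1, a partner of ER chaperones, read 8.16, 6.62, 6.68 and 7.89 against 6.89, 8.76, 7.68 and 8.60, a difference of 0.59 ± 0.59 (SE).

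Other members of the list, picked after their values were seen, lay nearer to 0 or below it. Xbp1, the transcription factor activated by Ern1, differed by 0.03 ± 0.16 (SE) and Ern1 itself by 0.17 ± 0.26 (SE). Atf6 differed by 0.16 ± 0.32 (SE) and by -0.29 without animal 171. Herpud1, a scaffold of the degradation complex, was at -0.11 ± 0.29 (SE), and Hyou1, an ER chaperone, at -0.21 ± 0.37 (SE). Of the separate ATF4 and amino acid response list, 8 of 22 tested genes were above 0, with a median of -0.15 (-0.08 without animal 171).

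Several of these genes carry the ER stress element in their promoter, the sequence through which ATF6 and XBP1 act, and it is shown for those whose values are given above. The motif searched was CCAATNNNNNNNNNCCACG on both strands of the 300 bases from 250 before to 50 after each gene's start in the RefSeq table (assembly GRCm38.p6, the C57BL/6J reference; the alleles of IL16513 may differ). It was found in 0.119% of 32841 promoters. It was present in 9 of the 24 list members whose promoter is listed: Derl3, Dnajc3, Hspa5, Hsp90b1, Pdia6, Calr, Canx, Creld2 and Syvn1. Pdia4 and Sdf2l1 had no match in this window. The last 4 carriers named are not described above and their treatment differences are not given, so the 5 described do not stand for all 9. Of the 5, Hspa5, Hsp90b1 and Pdia6 were picked after their values were seen. Ranked among the strains from the highest level down, Calr stood at 40 in vehicle and 41 in tolvaptan animals. Creld2 stood at 36 and 37, Syvn1 at 24 and 28, and Canx at 44 and 37. Whether carriers rose more than other list members was not tested. The search was added after the data were seen. Each line gives the bases around the match 5′ to 3′ along the gene, with the match in capitals; in Derl3 the match reads on the opposite strand.
Derl3: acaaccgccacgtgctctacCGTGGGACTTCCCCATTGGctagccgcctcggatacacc
Hspa5: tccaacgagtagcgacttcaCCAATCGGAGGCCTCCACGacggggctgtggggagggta
Dnajc3: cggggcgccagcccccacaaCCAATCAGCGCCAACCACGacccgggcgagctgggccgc
Hsp90b1: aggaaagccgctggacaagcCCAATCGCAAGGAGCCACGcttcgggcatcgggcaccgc
Pdia6: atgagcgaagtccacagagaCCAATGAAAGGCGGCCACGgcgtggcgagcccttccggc
These windows lie at chr10:75893222-75893280 (plus strand) for Derl3, chr2:34772005-34772063 (plus) for Hspa5, chr14:118937807-118937865 (plus) for Dnajc3, chr10:86705618-86705676 (minus) for Hsp90b1 and chr12:17266471-17266529 (plus) for Pdia6. All 5 windows are upstream of the annotated start.

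The 3 inducible serum amyloid A genes of the acute phase list were higher after tolvaptan, with groups that did not overlap. Over all genes tested, 0.637% had groups apart with tolvaptan higher, and the strain was chosen on this contrast. Saa3, an amyloid of liver and macrophages, read 8.66, 9.33, 7.63 and 8.32 in vehicle and 9.90, 9.88, 10.11 and 10.51 in tolvaptan animals. All 4 tolvaptan livers were above all 4 vehicle livers. The difference was 1.49 ± 0.81 (SE), and 1.22 to 1.79 when any 1 animal was left out. Saa3 also rose in the other 44 strains, by 0.89 ± 0.12 (SE, limma adjusted p = 4.3e-08), with a positive difference in 34 of 44. There the adjusted p was 7.0e-04 with strains as the unit, and 0.14 without scan 2, where the difference was 0.63. IL16513 ranked 10 of 45.

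Saa1, secreted into plasma by hepatocytes, read 12.71, 12.97, 12.74 and 12.76 in vehicle and 13.19, 13.38, 13.25 and 13.13 in tolvaptan animals. Saa2, its close paralog, read 11.37, 11.79, 11.17 and 11.70 against 11.95, 12.02, 12.16 and 12.03. Lcn2, an iron-binding acute phase protein, read 10.47, 9.85, 9.82 and 10.36 against 10.54, 11.36, 11.72 and 11.20. For all 3 genes the groups did not overlap, although for Lcn2 vehicle animal 171 and tolvaptan animal 175 were close. The differences were 0.49 ± 0.65, 0.58 ± 1.08 and 1.14 ± 1.35 (SE). These errors are wider than the spread among the 8 livers, because they pool animals of all strains. None of the 3 was called in the other 44 strains (limma adjusted p = 0.24, 0.52 and 0.53). The paralogs are similar in sequence, and how far their probe sets cross-hybridize was not tested.

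Over the whole acute phase list, 0 of 26 tested members were called, 20 were above 0 and 6 below, with a median of 0.16 and 0.08 without animal 171. The 4 members whose groups were apart were Saa1, Saa2, Saa3 and Lcn2, all higher, where 0.637% of all genes tested were apart in that direction. Nothing is read from this count, since the strain was chosen on this contrast. Fgb, the fibrinogen beta chain, read 9.77, 11.13, 10.89 and 11.71 in vehicle and 11.33, 10.83, 11.55 and 12.51 in tolvaptan animals. Its difference of 0.67 ± 0.24 (SE) became 0.32 without animal 171, the lowest of the 8. Socs3, the feedback inhibitor of the cytokine signal that drives these genes, was lower: 3.51, 3.77, 3.67 and 5.06 in vehicle and 2.54, 3.41, 3.44 and 3.55 in tolvaptan animals. Its difference was -0.86 ± 0.38 (SE), the lowest of the 45 strains, and -0.54 without vehicle animal 174.

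A C/EBP-type motif, bound by a factor family of acute phase transcription, is shown for Saa3 because that gene separated the groups. The letters searched were TTGCNNAA on both strands, and 10.8% of all promoters of the same length hold them, as do 13 of the 23 list members with a promoter in the table. The window at chr7:46715748-46715795 (minus strand, GRCm38.p6) has its match, on the opposite strand of the gene, in capitals.
Saa3: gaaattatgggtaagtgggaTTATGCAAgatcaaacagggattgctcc

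**Figure D3:**
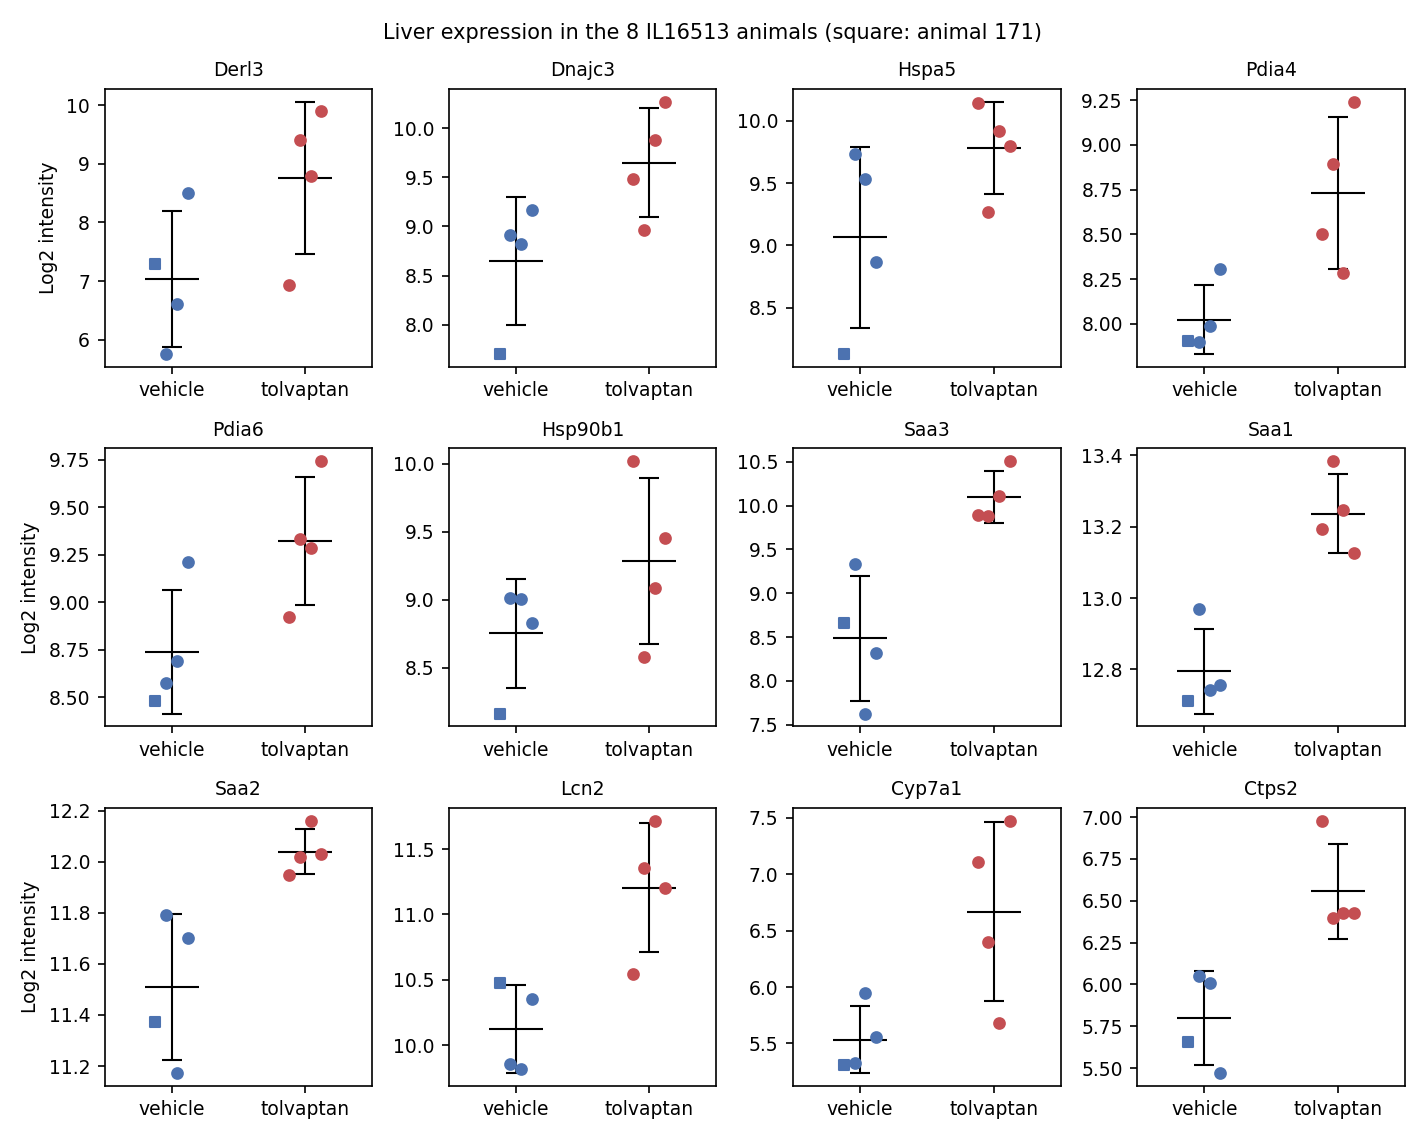
Log2 intensity of 12 genes in the 4 vehicle (blue) and 4 tolvaptan (red) IL16513 livers, with mean and SD bars and a square for animal 171. The groups do not overlap for Saa3, Saa1, Saa2, Lcn2 and Ctps2 and overlap for the other 7.

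**Figure D4:**
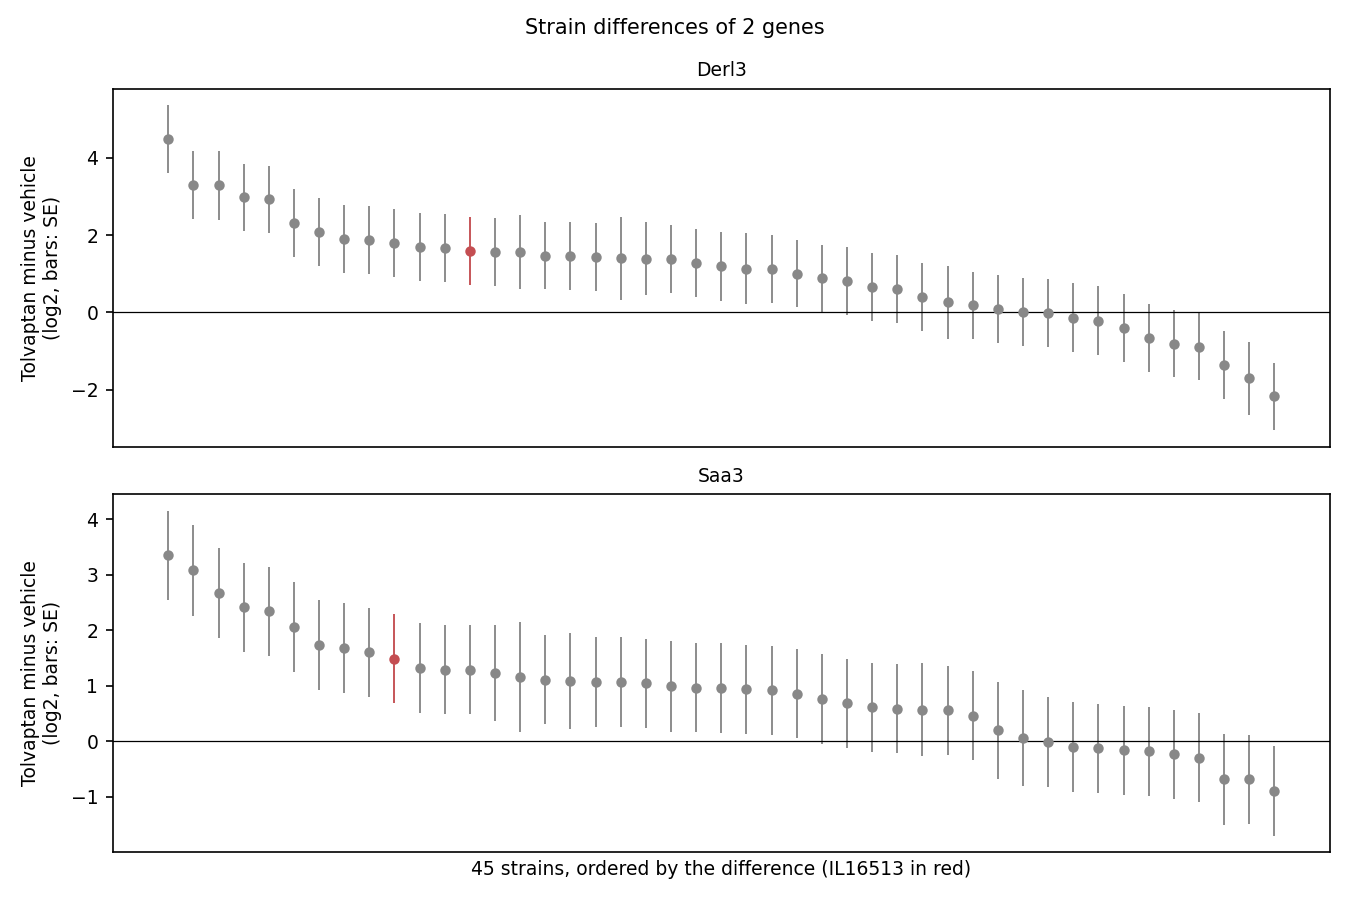
Difference in Derl3 and Saa3 (tolvaptan minus vehicle, log2, bars are SE) in each of the 45 strains in falling order, with IL16513 in red. IL16513 lies at rank 13 for Derl3 and rank 10 for Saa3, within the SE of its neighbours.

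Other panel-wide genes showed how unevenly single animals contributed. Ctps2, which makes CTP for nucleotide and phospholipid synthesis, read 5.66, 6.05, 6.01 and 5.47 in vehicle and 6.98, 6.39, 6.42 and 6.43 in tolvaptan animals. Its groups were apart, and its difference of 0.75 ± 0.26 (SE) was the highest of the 45 strains. Ctps2 rose by 0.15 in the other 44 strains (limma adjusted p = 0.035, and 0.26 with mismatched arrays left out, where the difference was 0.12). Wfdc12 and Slpi, which encode small protease inhibitors, were high in 1 animal. Wfdc12 read 7.65 in tolvaptan animal 178 and between 3.06 and 4.57 in the other 7, and Slpi read 6.15 there and between 4.02 and 4.64 in the other 7.

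Among the genes that fell in the other strains, Coq10a, which serves coenzyme Q function, read 8.16, 8.23, 8.02 and 8.28 in vehicle and 7.55, 7.80, 7.73 and 7.80 in tolvaptan animals. The groups were apart, and the difference was -0.47 ± 0.23 (SE), against -0.14 (limma adjusted p = 0.032) in the other strains. The adjusted p there was 0.17 with mismatched arrays left out, 0.071 with strains as the unit and 0.83 without scan 2. With the mean of all probe sets per gene it was 0.054, and it stayed under 0.05 in the other settings run. N4bp2l1 read 9.15, 8.98, 9.41 and 9.55 against 8.05, 8.96, 9.15 and 8.83, a difference of -0.59 ± 0.41 (SE). Uroc1, an enzyme of histidine breakdown, read 10.75, 10.56, 10.69 and 10.97 against 10.34, 10.41, 10.30 and 10.68, a difference of -0.29 ± 0.20 (SE).

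Some panel-wide genes went the other way in IL16513. Agt, angiotensinogen, read 11.96, 11.73, 11.77 and 11.87 in vehicle and 11.61, 11.79, 11.84 and 11.81 in tolvaptan animals, a difference of -0.12 ± 0.18 (SE). The groups overlapped, and in the other 44 strains Agt rose by 0.18 ± 0.03 (SE, limma adjusted p = 6.2e-06). Gnat2, Itgb6, Grina, Pla1a, D8Ertd738e and Tmem266 were also at or below -0.03 in IL16513 while called higher elsewhere. Sned1 and Gldc were at 0.19 and 0.06 while called lower elsewhere. The difference between IL16513 and the other strains was not tested for any of them.

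Bile acid synthesis genes were displaced upward in IL16513. Of the 16 tested members 0 were called, 14 were above 0 and 2 below, with a median of 0.28 (0.17 without animal 171, again with 14 above 0), against -0.01 in the other 44 strains. Cyp7a1, the rate-limiting enzyme of bile acid synthesis, read 5.31, 5.33, 5.95 and 5.55 in vehicle and 7.11, 6.40, 5.68 and 7.47 in tolvaptan animals. Only animal 177 fell inside the vehicle range. The difference was 1.27 ± 0.87 (SE), 1.18 without animal 171, and rank 3 of 45. Acox2, a peroxisomal oxidase of bile acid precursors, read 10.50, 10.64, 10.42 and 10.20 against 10.91, 10.76, 10.70 and 10.85, with groups apart and a difference of 0.37 ± 0.21 (SE). Nr1h4 (FXR), the bile acid receptor, read 8.33, 8.87, 8.83 and 8.91 against 9.27, 8.88, 8.92 and 9.15, a difference of 0.33 ± 0.18 (SE), the highest of the 45 strains, and 0.21 without animal 171. Nr0b2 (SHP), a target of that receptor, was at -0.01 ± 0.49 (SE).

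The transporters that move bile acids into and out of the hepatocyte were less even. Slc10a1 (NTCP), the uptake carrier of the sinusoidal membrane, read 10.22, 11.59, 11.11 and 11.17 in vehicle and 11.95, 11.11, 11.26 and 11.78 in tolvaptan animals. Its difference of 0.51 ± 0.25 (SE) became 0.25 without animal 171. Abcb11 (BSEP), the export pump of the canalicular membrane, read 7.44, 8.17, 8.55 and 8.17 against 8.88, 7.24, 8.51 and 8.64, a difference of 0.25 ± 0.34 (SE) and 0.04 without animal 171. The groups overlapped for both carriers. Over the 19 tested transporters 12 were above 0, with a median of 0.13 and 0.01 without animal 171.

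Vasopressin receptor and osmotic genes were read because the drug blocks a vasopressin receptor. The gene of that receptor, Avpr2, was measured but not above the array median in at least 4 arrays, so it was not tested. Avpr1a, the vasopressin receptor of hepatocytes and not the one tolvaptan is aimed at, read 6.75, 5.76, 6.26 and 6.23 in vehicle and 4.88, 5.29, 6.69 and 5.95 in tolvaptan animals. Animals 175 and 176 were below all vehicle animals and animals 177 and 178 were not, giving -0.56 ± 0.46 (SE). The 2 probe sets of the gene differed in sign. Nfat5, the transcription factor of osmotic stress, read 3.52, 3.86, 4.05 and 4.16 against 4.65, 3.56, 4.88 and 4.79, a difference of 0.51 ± 0.29 (SE). Of 13 tested members 8 were above 0, with a median of 0.20 and 0.13 without animal 171.

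Drug metabolism genes showed no common displacement. Of 23 tested targets of the xenobiotic receptors CAR and PXR, 13 were above 0 and 10 below, with a median of 0.03, and without animal 171 8 were above 0 and the median was -0.09. Cyp3a11, a main drug-oxidizing enzyme, read 12.60, 12.91, 13.09 and 12.99 in vehicle and 13.07, 12.71, 12.90 and 13.10 in tolvaptan animals. Cyp2b10, the classic CAR target, read 11.46, 11.00, 12.31 and 11.16 against 10.79, 11.17, 12.47 and 10.63. The groups overlapped for both, and the differences were 0.09 ± 0.31 and -0.44 ± 1.11 (SE). Alas1, the first enzyme of heme synthesis, read 11.13, 11.64, 11.27 and 10.58 against 11.69, 11.72, 11.19 and 11.49, a difference of 0.29 ± 0.49 (SE). Alas1 rose in the other 44 strains, by 0.35 ± 0.08 (SE, limma adjusted p = 0.0055). IL16513 had the highest Cyp2b10 vehicle mean of the 45 strains.

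Several groups had medians below 0, where 45.6% of all genes tested were above 0. Of 20 tested immediate early genes, which respond to growth and stress signals within minutes, 16 were below 0, with a median of -0.21 and -0.28 without animal 171. Jun, a subunit of the AP-1 transcription factor, read 7.07, 7.11, 8.73 and 7.06 in vehicle and 7.04, 6.81, 7.85 and 5.89 in tolvaptan animals, a difference of -0.67 ± 0.56 (SE). Jund, its relative, read 7.04, 6.74, 6.44 and 7.54 against 6.30, 6.91, 6.85 and 5.65, a difference of -0.53 ± 0.28 (SE), and its 2 probe sets differed in sign. The groups overlapped for both. Of 7 tested MHC class II genes 5 were below 0, with a median of -0.27, yet in scan 1 the list's median was 0.23.

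Cholesterol synthesis genes were at a median of -0.12 (-0.11 without animal 171), with 9 of 16 tested below 0. In 2 of them the groups were apart with tolvaptan lower, where 1.32% of all genes tested were. Tm7sf2, a sterol reductase, read 11.10, 10.77, 10.73 and 10.63 in vehicle and 10.03, 10.44, 10.40 and 10.47 in tolvaptan animals, a difference of -0.47 ± 0.22 (SE), the lowest of the 45 strains. Nsdhl, which removes methyl groups from sterols, was apart too, with a difference of -0.57 ± 0.56 (SE). PPAR-alpha targets, which serve fatty acid oxidation, had a median of -0.12, with 16 of 23 below 0. Slc3a2, the heavy chain of amino acid exchangers, read 8.87, 8.81, 8.81 and 8.83 against 8.02, 8.48, 8.68 and 8.35, with groups apart and a difference of -0.50 ± 0.25 (SE). It belongs to the ATF4 and amino acid response list, where 1 member was apart with tolvaptan lower and 1 with tolvaptan higher. Of 17 tested p53 targets 12 were below 0, and Cdkn1a, the cell cycle inhibitor p21, read 9.33, 8.31, 10.13 and 8.94 against 7.14, 8.02, 10.05 and 7.29, with overlapping groups and a difference of -1.45 ± 1.07 (SE). Mki67, a proliferation marker, was highest in tolvaptan animal 178, at 2.33, 1.86, 2.14 and 2.77 against 2.75, 3.13, 2.50 and 4.06. Most of these values are below the array medians of 2.84 to 2.93. The 23 tested cell cycle genes had a median of -0.03, with 13 below 0 and 12 below the array median.

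The 20 genes named by the largest moderated statistic, none of them called, were mostly not genes of the panel-wide response. The 10 higher genes were Spty2d1, Khdrbs1, Bnip2, Zadh2, Snx4, Capn2, Zfp277, Kif13a, Papola and Immt, with differences of 0.48 to 2.02. Spty2d1, a histone chaperone, read 2.06, 4.04, 5.43 and 1.95 in vehicle and 6.25, 5.12, 5.94 and 4.41 in tolvaptan animals. Khdrbs1 (Sam68), an RNA-binding protein, read 4.76, 6.96, 6.75 and 5.95 against 6.96, 6.51, 7.08 and 6.99. Animal 171 was the lowest of the 8 in 7 of the 10 higher genes, and without it their differences were 0.16 to 1.57. For Bnip2, 1 of 5 probe sets had a positive difference.

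The 10 lower genes were Samd1, Eln, Mif4gd, Plekhm1, Brf2, Zc3h10, Vhl, Tmem256, Ubtd1 and Metrnl, with differences of -0.97 to -0.32. Animal 171 was the highest of the 8 in 6 of them, and without it the differences were -0.80 to -0.27. Samd1, a chromatin protein, read 5.93, 4.93, 5.45 and 4.91 in vehicle and 3.79, 4.10, 5.04 and 4.54 in tolvaptan animals. Eln, elastin of the extracellular matrix, read 4.02, 4.08, 3.74 and 3.73 against 3.31, 3.67, 3.11 and 2.91. Brf2, a factor of RNA polymerase III, read 4.51, 4.54, 4.41 and 4.31 against 3.57, 3.54, 4.26 and 3.33, and Plekhm1, an adaptor of lysosomal traffic, read 7.27, 6.60, 6.84 and 6.56 against 6.07, 6.39, 6.45 and 6.03. Groups were apart for Eln, Brf2 and Plekhm1 and overlapped for the other 7, and 1.32% of all genes tested were apart with tolvaptan lower.

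Of these 20 genes, 18 had the same sign in the other 44 strains. The share of all genes with matching signs was not counted, so nothing is read from the 18. In those strains 0.333% of all genes tested were called higher and 0.156% lower, and 1 of the 20 was called, in the same direction. That gene, Mif4gd, which takes part in histone mRNA translation, fell by 0.12 ± 0.03 on the log2 scale (SE, limma adjusted p = 0.0055, and 0.12 with strains as the unit). In IL16513 it read 8.69, 8.19, 8.58 and 8.67 in vehicle and 7.46, 8.02, 8.50 and 7.92 in tolvaptan animals, a difference of -0.60 ± 0.17 (SE). The mean of the other strains was at most 0.12 from 0 for each of the 20 genes. All 20 had the same sign when any 1 of the 8 animals was left out. Their choice on these same arrays, with 1 sign in both scans, made this likely, so it supports nothing.

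The level of a gene in IL16513 was ranked among the 45 strains, vehicle with vehicle and tolvaptan with tolvaptan. The ranks use the same group means as the treatment difference, so a shift in rank between the groups is no independent support for it. Over all 14125 genes the median rank was 21 in vehicle and 23 in tolvaptan animals, where rank 1 is the highest level, and 13.7% and 7.92% of genes lay among the lowest 5 strains. Interferon-responsive genes, the antiviral genes induced by type I and II interferon, stood far below this. Their median rank was 42 in vehicle (42 without animal 171) and 44 in tolvaptan animals, and 12 and 13 of 21 members were among the lowest 5 strains. Oasl1, Xaf1 and Parp14 ranked 45 of 45 in both groups: Oasl1 averaged 3.97 ± 0.65 and 4.20 ± 0.41, Xaf1 4.69 ± 0.29 and 4.79 ± 0.46, and Parp14 3.62 ± 0.63 and 3.87 ± 0.51 (SD, n = 4 each). Between treatments the same list had 10 of 21 above 0 and a median of -0.06. MHC class II genes had median ranks of 42 and 41. A difference between strains in RNA level and one in how a strain's sequence binds the probes cannot be told apart here.

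ER stress genes had a median rank of 38 in vehicle (38 without animal 171) and 28.5 in tolvaptan livers, and 10 of 28 were among the lowest 5 strains in vehicle and 2 in tolvaptan. Pdia4 and Hsp90b1 ranked 45 of 45 in vehicle with or without animal 171, and 31 and 41 in tolvaptan. Dnajc3 ranked 45 in vehicle (40 without animal 171) and 20 in tolvaptan. Serum amyloid genes stood at the other end, with Saa2 ranked 2 and 1, Saa1 4 and 2, and Saa3 6 and 3 in vehicle and tolvaptan. Immediate early genes had a median rank of 5.5 in vehicle (3.5 without animal 171) and 14.5 in tolvaptan, with 10 and 5 of 20 among the highest 5 strains, where 18.5% and 8.62% of all genes lay. In vehicle livers Jun, Jund, Myc, Ier3, Gadd45b, Ccn2 and Fosl2 ranked 1, while Fos and Junb ranked 21, Klf4 31, Egr1 36 and Ccn1 39. Jun was at 8.73 in vehicle animal 173 and at 7.11 in the nearest vehicle animal. These lists were picked for their ranks after these were seen, and no test was made.

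**Figure D5:**
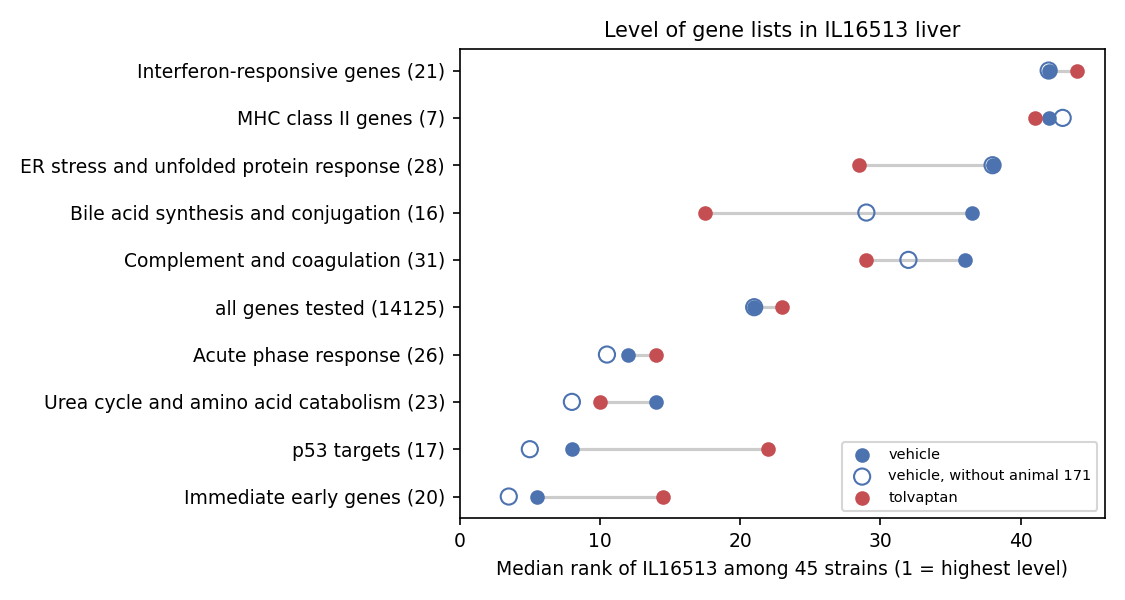
Median rank of IL16513 among 45 strains (1 is the highest level) for 9 gene lists and for all genes tested, with the number of genes in brackets, in vehicle livers (blue), vehicle livers without animal 171 (open circle) and tolvaptan livers (red). Interferon-responsive genes lie at 42 and 44, ER stress genes at 38 and 28.5, and immediate early genes at 5.5 and 14.5.

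Markers of the cell types a liver sample can hold had median differences of -0.12 to 0.12 between the groups. In bulk tissue, fewer cells of a type and less RNA per cell cannot be told apart. Hepatocyte markers had a median difference of -0.00 over 15 genes, with 6 above 0. Kupffer cell and macrophage markers had -0.12 over 19 genes (-0.06 without animal 171), with 8 above 0 and an array mean of 5.17 to 5.57 in vehicle and 4.95 to 5.46 in tolvaptan animals. Stellate cell and fibroblast markers had -0.06 over 17 genes (-0.20 without animal 171), with array means of 5.07 to 5.55 and 4.87 to 5.63. Neutrophil markers had -0.05 over 10 genes, with array means of 2.96 to 3.18 and 2.96 to 3.25, and 5 of the 10 were below the array median. T and NK cell markers had 0.02 over 11 genes, B and plasma cell markers 0.03 over 9, and cholangiocyte markers -0.11 over 8, of which 7 were below the array median. The part of these cell types in the differences above was not tested. Gzma, a killer cell protease, was the only cell type marker with groups apart. It read 2.87 ± 0.10 in vehicle and 3.27 ± 0.26 in tolvaptan animals (SD, n = 4 each). Its vehicle mean was within the array medians of 2.84 to 2.93. Over all genes tested, 0.637% had groups apart with tolvaptan higher. Of the 11 T and NK cell markers 7 were above 0 and 4 below, and 6 were below the array median. Il2rb, of the same list, ranked 1 among the strains in vehicle and 25 in tolvaptan animals.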

How the data were processed

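The authors deposited log2 values for 354 Affymetrix HT_MG-430 PM arrays; RMA and the Affymetrix Expression Console are named per the submitters' processing notes; versions, a build and whether all arrays were normalized together are not given in the sources used here. Arrays have no read depth, and their number limits the precision. Of 42597 probe sets 27691 had 1 symbol, 493 several and 14376 none, and 27494 were matched to RefSeq names. The probe set with the highest mean stood for a gene, kept if above the array median in at least 4 arrays (14125 genes). limma 3.58.1 in R 4.3.3 fitted 1 mean per strain and treatment plus scan (6 scans), with 1 residual spread, two-sided tests and Benjamini-Hochberg adjustment at 0.05. The other 44 strains were fitted without IL16513. Alternatives changed the arrays, centring, filter, probe set rule, scan term and spread model; the promoter search, the list values without animal 171 and the fit without both it and the mismatched arrays were added after the data were seen. Steps were tested on simulated data. The members, the 47 gene lists, the tests and the rules were chosen with earlier results of these data known. The rule, which starts from the 15 largest called differences, found none and so named the 10 largest moderated statistics per direction, with the same sign in scan 1 and scan 2 and a higher group mean over 1 log2 unit above the array median (predicted genes left out), 1 or 2 members per list, and Avpr1a, Cyp3a11, Cyp2b10, Alas1, Derl3, Saa3, Abcb11 and Slc10a1; other genes were named after their values were seen.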

Additional observations from a re-analysis of the deposited data

Results flagged for a closer look

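Among 102 groups of 4 animals (46 genes, 4 array measures and the score, in vehicle and tolvaptan), 7 held 1 animal far from the other 3 relative to the group's range. Chance gives about 1 in 20. In vehicle animals these were Nr1h4 at 8.33 and Wfdc12 at 4.57, both in animal 171, against 8.83 and 4.06 in the nearest animal, and Jun at 8.73 and Nsdhl at 8.64, both in animal 173, against 7.11 and 8.40. In tolvaptan animals they were Socs3 at 2.54, Ctps2 at 6.98 and Tm7sf2 at 10.03, all in animal 175, against 3.41, 6.43 and 10.40 in the nearest animal.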

How the results depend on the processing

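In IL16513 0 genes were called under every alternative run but 1: without tolvaptan animal 178, 1 gene was called (Wif1, 0.89 ± 0.18 SE, and 0.50 with all animals), so leaving out single animals gave 0 to 1. The groups share no animal numbers. No paired analysis was possible because the replicate numbers are animal numbers, and no number occurs in both groups. The score difference was 0.77 in scan 1 alone. With the mean of all probe sets per gene, the median of the genes higher in the other strains was 0.13 in IL16513 in place of 0.26. Centring arrays on the 75th percentile moved the median of all genes from -0.02 to -0.10. In the other 44 strains 69 genes were called; 29 were called without the arrays off their strain (25 shared), 212 in the 25 strains with no such array (56 shared), 16 with strains as the unit (15 shared) and 1 without scan 2 (1 shared). Of the 20 genes named from IL16513, the number called there was 2, 0 and 0 in the last 3 of these, against 1. Of 116 named differences, 106 or more had the same sign under each alternative, the fewest in scan 1 alone, a comparison of 1 animal with 1. Of the 47 list medians, many near 0, 30 to 47 had the same sign. The 8 animals limit the precision: the median SE was 0.21.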

Other observations

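Complement and coagulation genes, secreted by hepatocytes, had 20 of 31 tested members above 0 in IL16513, with a median difference of 0.19 that was 0.06 without animal 171. Their median rank among 45 strains was 36 in vehicle and 29 in tolvaptan livers. Heat shock chaperones of the cytosol had a median of 0.18 over 14 genes (-0.04 without animal 171), and gluconeogenesis and fasting genes 0.16 over 15 (-0.01 without it). Subunits of the respiratory chain had 25 of 34 members below 0, with a median of -0.04, and proteasome subunits 17 of 25 above 0, with a median of 0.04 (0.09 without animal 171). No member of these lists was called or had groups apart.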
